A study of Homo sapiens with 10 samples.

Results

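The binding sites of KAP1 and Larp7 in HCT116 cells were compared site by site. HCT116 is an established human colorectal carcinoma line. All peaks of the 2 deposited broad-peak lists that lie on the 22 autosomes were taken, which gave 60660 KAP1 peaks and 182444 Larp7 peaks. These 243104 regions are part of 681093 autosomal regions in the 5 peak lists analysed here. A peak was called shared when it overlapped a peak of the other list by at least 1 bp, and KAP1-only or Larp7-only otherwise.

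The series holds 10 sequencing libraries of untreated HCT116 cells, which are 1 chromatin immunoprecipitation (ChIP-seq) library per antibody and 1 library of input DNA that was not analysed here. Cells were fixed with formaldehyde and the chromatin was sonicated before immunoprecipitation with an Abcam antibody to KAP1 or a Sigma antibody to Larp7. The lists for Hexim1, Cdk9 and total RNA polymerase II (Pol II) served here as outside readouts, since none of them was used to define the classes. No library had a replicate, so every interval given is an exact (Clopper-Pearson) 95% binomial interval that covers counting error only, and no difference carries a test.

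KAP1, the product of TRIM28, is a chromatin co-regulator that KRAB zinc finger proteins bring to DNA, where it can recruit the histone methyltransferase SETDB1 and heterochromatin protein 1. Larp7 is a La-related protein that binds and stabilises the 7SK RNA. Together with Hexim1, 7SK RNA holds P-TEFb, the kinase complex of Cdk9 and cyclin T, in an inactive form, and release of Cdk9 lets paused Pol II move into the gene body.

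The KAP1 peaks covered 45.5 Mb with a median width of 515 bp and the Larp7 peaks covered 145 Mb with a median width of 471 bp. Of KAP1 peaks 14.1% passed a −log10 q of 5, and of Larp7 peaks 18.6%. The read depth of the libraries is unknown. The labels call the cell type endothelial, which conflicts with the colorectal carcinoma origin of HCT116. Pol II peaks lay at the promoters of 7 of 12 colon epithelium markers and 2 of 9 endothelium markers. They also lay at 4 of 8 fibroblast and smooth muscle markers and at 0 of 6 blood cell markers. Pol II was common at coding promoters. It lay at 95.8% of those with both KAP1 and Larp7, which were 65.6% of all coding promoters. Of those with Larp7 alone (10.8% of all) it lay at 52.2%, and of those with neither (23% of all) at 12.6%. Promoters with KAP1 alone (0.619% of all) had it in 67.2%. The share of colon epithelium markers was thus not high, and the marker counts alone do not identify the cell type, which is known from the name of the line.

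The windows printed next are the middles of peaks of each class that rank among its strongest by the authors' deposited fold, a ratio of the peak over its background. They are shown as examples of a site with both factors, of sites with KAP1 and no Larp7, and of a site with Larp7 and no KAP1. Hexim1, Cdk9 and Pol II peaks overlapped every peak printed here. In that the unshared ones are not typical, since all 3 together lay at 1.70% of KAP1-only and 4.32% of Larp7-only peaks. Capitals mark the GC box GGGCGG, to which Sp1 family factors bind, and the NRF1 motif GCGCANGCG, each searched on both strands and separately, so that matches may overlap.

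KAP1 with Larp7, chr12:94885-95085 (hg19, plus strand): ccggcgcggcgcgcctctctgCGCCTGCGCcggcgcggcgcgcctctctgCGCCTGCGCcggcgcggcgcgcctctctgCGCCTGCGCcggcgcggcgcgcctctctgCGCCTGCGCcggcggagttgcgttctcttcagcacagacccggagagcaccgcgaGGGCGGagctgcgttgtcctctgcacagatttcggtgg
KAP1-only, chr2:114359786-114359986 (hg19, plus strand): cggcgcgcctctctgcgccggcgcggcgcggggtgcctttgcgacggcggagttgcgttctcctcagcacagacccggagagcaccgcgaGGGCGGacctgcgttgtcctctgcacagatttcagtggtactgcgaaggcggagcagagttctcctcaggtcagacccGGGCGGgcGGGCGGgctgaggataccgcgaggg
KAP1-only, chr12:100557720-100557920 (hg19, plus strand): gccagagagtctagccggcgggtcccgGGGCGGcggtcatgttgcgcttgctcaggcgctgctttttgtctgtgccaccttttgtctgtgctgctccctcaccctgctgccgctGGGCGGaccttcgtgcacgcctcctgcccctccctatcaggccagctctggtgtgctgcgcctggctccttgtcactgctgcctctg
Larp7-only, chr3:140738186-140738386 (hg19, plus strand): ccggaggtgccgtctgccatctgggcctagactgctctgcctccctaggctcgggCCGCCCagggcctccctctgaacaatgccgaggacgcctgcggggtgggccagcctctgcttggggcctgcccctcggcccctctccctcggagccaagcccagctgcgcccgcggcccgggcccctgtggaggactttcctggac

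The strongest KAP1 peak of all (chr12:94306-95663, fold 17.2) lay outside genes near the end of the short arm of chromosome 12, and the Larp7 peak over it had a fold of 9.18. Its window held 4 NRF1 matches and 1 GC box, and a 20-base run recurred in 4 copies at a step of 29 bp.

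The strongest KAP1-only peak (chr2:114359704-114360068, fold 8.33) lay outside genes, 24.9 kb from the start of RABL2A and 1050 bp from the nearest Larp7 peak. Its window shared a run of 34 bases with the window of the strongest shared peak on chromosome 12. The second printed KAP1-only window lay in GOLGA2P5, a pseudogene. Both places, like the CDK11A promoter described further on, have close copies elsewhere in the genome, so their folds are uncertain. The fold of the strongest shared peak on chromosome 12 is uncertain too, since its window repeats itself and holds the same run of 34 bases. A Larp7-only peak among the strongest of its class (chr3:140738093-140738478, fold 9.62) lay outside genes, 31.9 kb from the start of SPSB4. Its window did not repeat itself by more than 8 bases.

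Most KAP1 peaks overlapped Larp7, and most Larp7 peaks had no KAP1. Of 60660 KAP1 peaks, 55139 (90.9%, interval 90.7 to 91.1%) overlapped a Larp7 peak and 5521 (9.10%) did not. Of 182444 Larp7 peaks, 47751 (26.2%, interval 26 to 26.4%) overlapped a KAP1 peak and 134693 (73.8%) did not. Along single chromosomes the share of KAP1 peaks with Larp7 ran from 87.0% on chromosome 8 to 94.1% on chromosome 22. The share of Larp7 peaks with KAP1 ran from 22.6% on chromosome 3 to 35.8% on chromosome 19. Both shares depended on how many peaks were kept. With the top 20000 peaks of both lists, ranked by −log10 p, 53% of KAP1 peaks had Larp7 and 50.5% of Larp7 peaks had KAP1, and with Larp7 cut to as many peaks as KAP1 the shares were 76% and 64.2%.

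The bases in both lists came to 41.4 Mb, which was 90.8% of the KAP1 length and 28.5% of the Larp7 length. They formed 55357 regions with a median of 495 bp, of which 12307 were at least 1 kb long and 338 at least 5 kb. The longest lay over PLEC, the gene of the cytoskeletal linker plectin, and ran for 31428 bp. A region of 20548 bp lay over NOTCH1, the gene of a receptor for Delta and Jagged ligands (chr9:139387548-139408095). A region of 18429 bp lay over MUC5B, a gel-forming mucin gene (chr11:1240013-1258441). With the 20000 strongest peaks per list the joint bases were 59.6% of the KAP1 length and 36.7% of the Larp7 length. Hexim1 covered 92.8% of the KAP1 length and Cdk9 covered 73.4%, measured in the same way.

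Most shared KAP1 peaks were nested. Of the 55139, 39306 (71.3%) lay wholly within 1 Larp7 peak, whereas 1239 of 47751 shared Larp7 peaks (2.60%) lay wholly within 1 KAP1 peak. A Larp7 peak held at least 2 KAP1 peaks in 5004 cases (10.5%), and the most in 1 Larp7 peak was 20. In the 42418 cases where 1 peak of each list met only the other, the Larp7 peak was the wider in 88.1%, with median widths of 928 bp for Larp7 and 517 bp for KAP1.

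The unshared peaks of both lists were narrower and weaker within their own list. The median fold was 4.23 for shared KAP1 peaks and 3.44 for KAP1-only peaks, and the median width was 549 bp against 243 bp. Among KAP1-only peaks 31 (0.562%) reached a −log10 q of 5, against 8511 (15.4%) of the shared ones. The median fold was 4.69 for shared Larp7 peaks and 3.14 for Larp7-only peaks, and the median width was 1044 bp against 319 bp. Larp7-only peaks that reached a −log10 q of 5 numbered 7210 (5.35%), against 26776 (56.1%) of the shared ones.

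**Figure D1:**
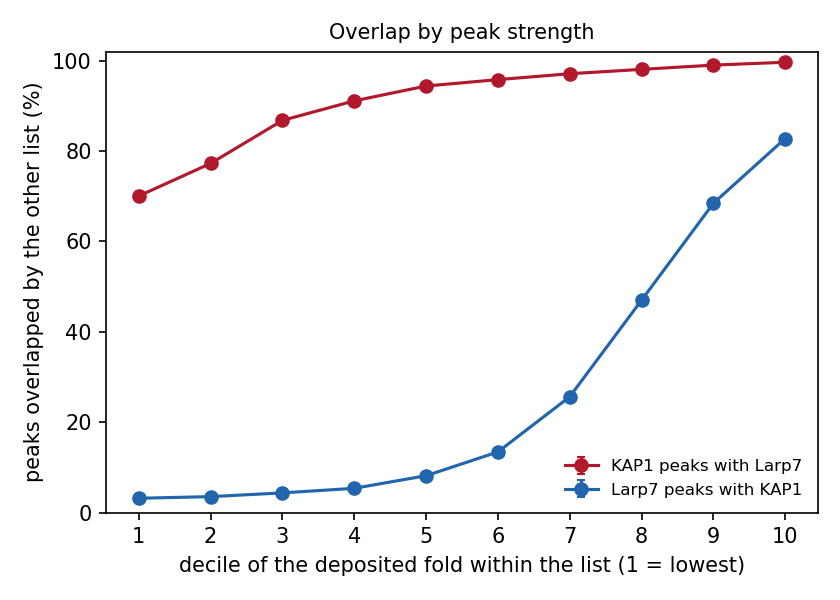
Share of peaks overlapped by the other list (y axis, %) in deciles of the deposited fold within each list (x axis, 1 = lowest), with exact 95% intervals that are mostly smaller than the points. KAP1 peaks (red) rise from 70.0% to 99.6% and Larp7 peaks (blue) from 3.17% to 82.8%.

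Overlap rose with strength in both lists, as the plot by fold decile shows. In the lowest decile of KAP1 fold 70.0% of peaks had Larp7, and in the highest 99.6% did, which left 23 KAP1 peaks of that decile without Larp7. In the lowest decile of Larp7 fold 3.17% of peaks had KAP1, and in the highest 82.8% did, which left 3147 Larp7 peaks without KAP1. Across the 55139 shared KAP1 peaks the KAP1 fold and the highest overlapping Larp7 fold had a Spearman correlation of 0.457, given as a description since such peaks share neighbourhood, base composition and cell preparation.

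The gaps between unshared peaks and the other list are given for each class alone, because the Larp7 list is longer and so leaves less room between its peaks. For KAP1-only peaks the median gap to the nearest Larp7 peak was 2797 bp, and 1293 of 5521 (23.4%) lay within 1 kb of one. Larp7-only peaks had 5205 of 134693 (3.86%) within 1 kb of a KAP1 peak, and 75194 (55.8%) lay at least 10 kb away.

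**Figure D2:**
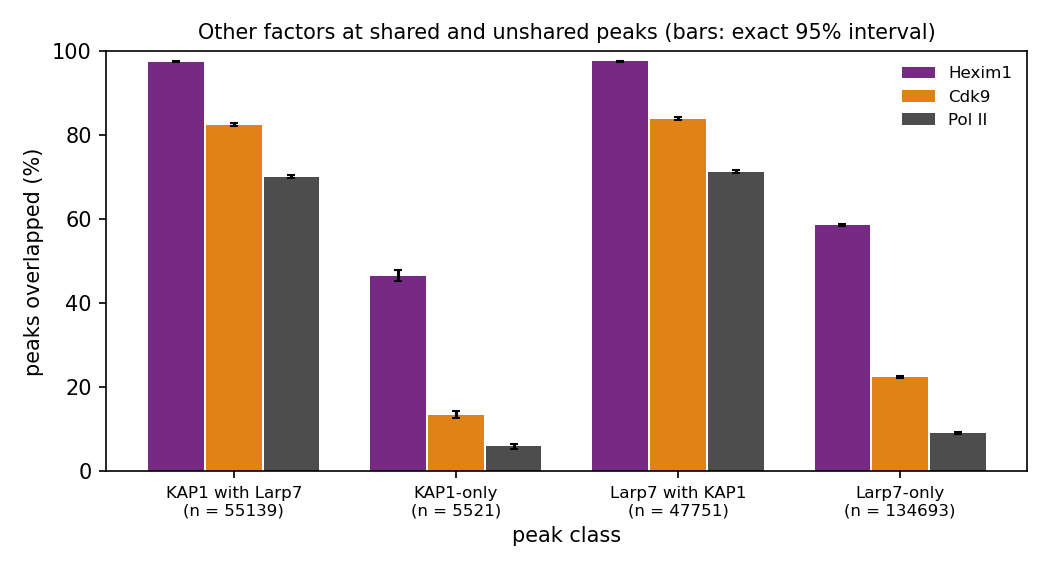
Share of peaks (y axis, %) in each of the 4 peak classes (x axis) that overlap a Hexim1, Cdk9 or Pol II peak, with exact 95% intervals. The shared classes stand above the unshared classes for all 3 factors, for example 70.1% against 5.92% with Pol II for KAP1.

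Shared sites carried the other 3 factors more often than unshared sites, as the bars for Hexim1, Cdk9 and Pol II show. Pol II overlapped 70.1% (interval 69.7 to 70.5%) of KAP1 peaks with Larp7 and 5.92% (5.31 to 6.58%) of KAP1-only peaks. Among Larp7 peaks it overlapped 71.4% of those with KAP1 and 9.13% of Larp7-only ones. Cdk9 overlapped 82.6% of shared and 13.5% of KAP1-only peaks, and 22.4% of Larp7-only peaks. Hexim1, the longest list, overlapped 97.6% of shared and 46.6% of KAP1-only peaks, and 58.7% of Larp7-only peaks. None of the 3 factors was present at 48.0% of KAP1-only peaks, 35.9% of Larp7-only peaks and 1.87% of shared KAP1 peaks.

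Peak width and strength moved with these shares, which are therefore also given within strata. Within quintiles of KAP1 width Pol II lay at 41.8 to 93.4% of shared peaks and at 5.52 to 8.00% of KAP1-only peaks. In the top decile of KAP1 fold it lay at 91.1% of shared peaks and 30.4% of the 23 unshared ones. In the top decile of Larp7 fold it lay at 88.1% of shared and 33.4% of Larp7-only peaks. The Pol II shares of unshared peaks varied widely with the setting. At a −log10 q of at least 5 in every list, the Pol II list included, Pol II lay at 89.9% of shared KAP1 peaks, 72.3% of KAP1-only peaks and 61.3% of Larp7-only peaks. With 20000 peaks per list, again with Pol II cut as well, the 3 shares were 47.6%, 42.4% and 16.5%. With all peaks set to 250 bp either way of their middles they were 66.7%, 52.1% and 10.3%, and with Larp7 cut to the number of KAP1 peaks 77.8%, 21.5% and 22.8%.

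**Figure D3:**
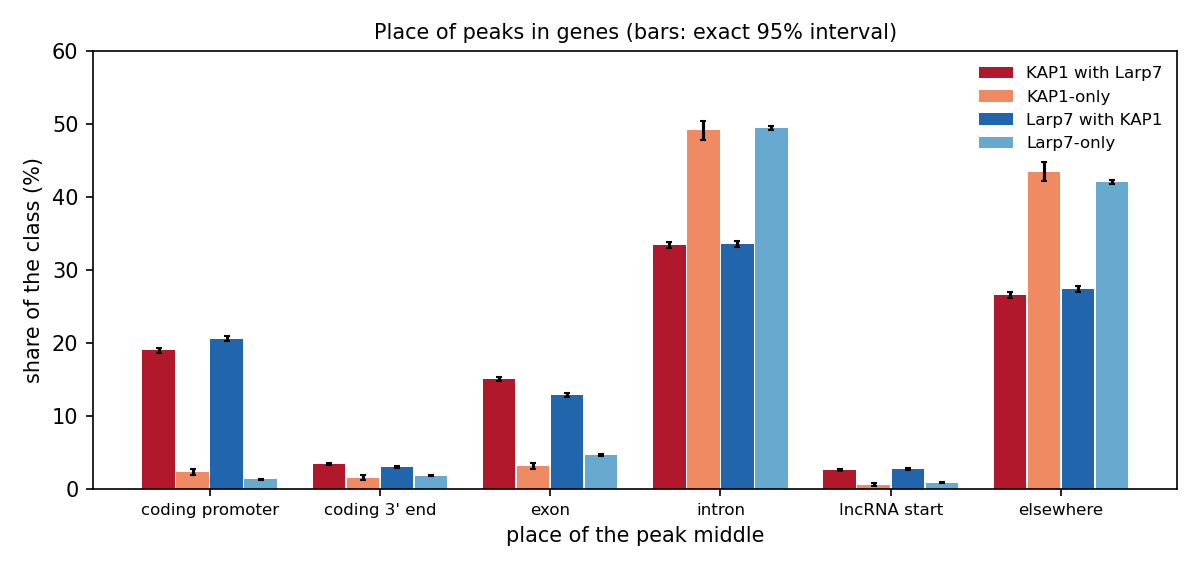
Share of each peak class (y axis, %) by the place of the peak middle (x axis), with exact 95% intervals. Introns hold the most peaks of every class, 33.5% of KAP1 with Larp7 and 49.2% of KAP1-only, and the shared classes have larger shares at promoters and exons than the unshared ones.

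Shared peaks had a larger share at promoters and exons than unshared peaks, although most peaks of every class lay in introns or outside genes. A coding promoter (1 kb on each side of the annotated 5′ end) held the middle of 19% of KAP1 peaks with Larp7, against 2.23% of KAP1-only and 1.29% of Larp7-only peaks. Exons held 15.0%, 3.08% and 4.58% of the same classes. Introns held 33.5%, 49.2% and 49.5%. The rest of the genome, outside coding genes and away from lncRNA starts, held 26.6%, 43.5% and 42.1%. The median distance to a coding start was 17.9 kb for shared KAP1 peaks, 36.1 kb for KAP1-only peaks and 37.6 kb for Larp7-only peaks.

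Read from the place instead, KAP1 with its middle at a coding promoter had Larp7 in 10473 of 10596 cases (98.8%). The share was 98.0% in exons, 95.9% at coding 3′ ends, 87.2% in introns and 85.9% elsewhere. Larp7 with its middle at a coding promoter had KAP1 in 9822 of 11561 cases (85.0%). At exons this share was 49.9%, at coding 3′ ends 37.3%, in introns 19.4% and elsewhere 18.8%, so the 2 lists parted most away from promoters.

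Base composition separated the classes too. The median GC content of the 201-bp windows at peak middles was 65.2% for KAP1 with Larp7, 50.8% for KAP1-only and 52.7% for Larp7-only. A GC box was found in 34.2% of shared KAP1 windows, 8.46% of KAP1-only windows and 10.7% of Larp7-only windows, beside 20.1% of the windows of all peaks of both lists. The ETS motif CCGGAAG was found in 3.44%, 0.942% and 1.1% of the same classes and the NRF1 motif in 1.93%, 0.272% and 0.195%. Over all peaks these 2 motifs were in 2.06% and 0.933% of windows. In the other direction, TATAAA was found in 2.14% of shared KAP1, 9.33% of KAP1-only and 7.86% of Larp7-only windows (5.58% of all), and the AP-1 motif TGANTCA in 2.44%, 3.89% and 3.87% (3.33% of all). A run that encodes the linker between zinc fingers, ACTGGAGAG, was found in 0.241%, 0.344% and 0.219% (0.237% of all). The GC box and ETS shares were higher, and the TATAAA and AP-1 shares lower, in the shared class of high GC content, and the part of GC content in them was not tested. The linker run was rare in every class, and its shares lay close together, with 0.272% for Larp7 peaks with KAP1. The KAP1-only share rests on 19 windows and sets that class apart from no other. The relation of this run to GC content was not tested.

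Of 19222 autosomal coding promoters, 12610 (65.6%) held both factors, 119 (0.619%) KAP1 without Larp7, 2081 (10.8%) Larp7 without KAP1, and 4412 (23%) neither. Only peaks that touch the window of 1 kb on each side were counted. With both factors the peaks need not overlap each other, and each fold given for a promoter is the highest of its list there. These shares rest on the length of the lists. With 20000 peaks each, 24.2% of promoters held both, 18.9% KAP1-only and 7.88% Larp7-only. At a −log10 q of at least 5 the same 3 shares were 21.6%, 3.88% and 27.7%. With Larp7 cut to the number of KAP1 peaks they were 60.6%, 5.64% and 4.51%, so which of the unshared classes was the larger at promoters changed with the setting.

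Pol II lay at 95.8% of promoters with both factors, 67.2% (interval 58.0 to 75.6%) of KAP1-only promoters, 52.2% (50.1 to 54.4%) of Larp7-only promoters and 12.6% of those with neither. Cdk9 lay at 96.9%, 35.3%, 48.6% and 6.44% of the same classes. The median Pol II fold, where Pol II was present, was 44.8 with both factors, 13.4 at KAP1-only, 18.4 at Larp7-only and 10.1 at promoters with neither. Promoters with both factors were the richest in CpG, with a median observed to expected CpG ratio over 2 kb of 0.696, against 0.539, 0.386 and 0.222. At KAP1-only promoters 42 of 119 (35.3%) had a Larp7 peak within 1 kb of the window, and at Larp7-only promoters 325 of 2081 (15.6%) had a KAP1 peak as close.

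The promoter strongest in both lists lay between DHX32, which encodes a member of the DEAH-box helicase family, and FANK1, 2 genes that start on opposite strands. KAP1 had a fold of 11 there (chr10:127584322-127585569) and Larp7 a fold of 9.78 (chr10:127584284-127585584), so that the edges lay 38 bp and 15 bp apart. Pol II had a fold of 37.3 at this place. PDCD7, which encodes a protein of the minor spliceosome, had folds of 10.1 for KAP1 and 8.08 for Larp7. Its Larp7 peak ended 449 bp further into the gene. At USP10, a ubiquitin protease gene, the folds were 9.55 and 8.11 and the 3′ edges differed little (Larp7 minus KAP1, −44 bp). The peaks at HMGXB4 (folds 8.34 and 8.87) and at the start shared by TEX46 and KDM1A, the gene of a histone H3 lysine demethylase (9.13 and 7.78), also belonged to this set. So did the start shared by EXD3 and NOXA1 (9.26 and 8.43), and that of POTEH (9.32 and 7.85), a member of a family of close copies whose counting is uncertain. All of these places had Hexim1, Cdk9 and Pol II peaks as well, as did 93.7% of all promoters with both factors.

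At the genes of the factors themselves, promoters with peaks of both lists were those of TRIM28 (KAP1 and Larp7 folds 6.98 and 6.39), HEXIM1 (4.37 and 4.33) and CDK9 (5.58 and 5.45). POLR2A, the gene of the large Pol II subunit, was another (3.70 and 4.98). HEXIM1 had 2 Larp7 peaks at the window, and 1 of them (chr17:43224638-43225784) did not overlap the KAP1 peak (chr17:43226319-43227586). LARP7 had neither, and of the 3 other factors only Hexim1 at a fold of 2.96. The 7SK RNA gene RN7SK (chr6:52860418-52860748) had Larp7 at 4.41, Hexim1 at 6.55, Cdk9 at 4.10 and Pol II at 13.3, with no KAP1 peak within 1 kb of its start.

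KAP1 without Larp7 at a promoter was rare and weaker, with a median KAP1 fold of 3.67 against 4.85 at promoters with both. The highest KAP1 fold of this class was 6.97 at CDK11A, a cyclin-dependent kinase gene with a close copy beside it, so that its reads may have been split. ZSCAN26 followed with 6.03 and ZNF708 with 5.72, both zinc finger genes. A peak of fold 5.36 lay between MRPL50, a mitochondrial ribosomal protein gene, and the zinc finger gene ZNF189. C10orf62 had 5.08. Pol II lay at all of these promoters except C10orf62, with a fold of 44.8 at CDK11A and 13.2 at the MRPL50 and ZNF189 pair. The class held 8 zinc finger (ZNF) genes of 119 (6.72%, interval 2.95 to 12.8%), where the class with both held 375 of 12610 (2.97%) and all coding promoters held 496 of 19222 (2.58%).

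Larp7 without KAP1 at a promoter was led by CRYM, the gene of a thyroid hormone-binding crystallin, with a fold of 8.05. Its peak ran from 987 to 2222 bp past the start and Pol II had a fold of 82.8 at this promoter. CIBAR1 had a Larp7 fold of 7.75, also past the start, with Hexim1 at 11.4 and no Pol II. MAFF, which encodes a small Maf transcription factor, had 7.03 with Hexim1 at 15.2 and Cdk9 at 7.05 but no Pol II at its annotated start. The testis gene GK2 (7.57), a near copy of another glycerol kinase gene and so uncertain, and BPIFB6 (7.05) also had no Pol II. TRPM1, a cation channel gene (6.83), FAM13C (6.75) and KLRD1, a natural killer cell receptor gene (6.74), had Pol II folds of 7.11, 5.43 and 7.91. These leading Larp7-only promoters thus ran from no Pol II to a high Pol II fold.

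Gene lists were read against the background shares of all coding promoters, 65.6% with both and 10.8% with Larp7-only. Of the immediate early genes, which growth signals switch on within minutes, 30 of 31 (96.8%) had both. DUSP6 had folds of 8.02 for KAP1 and 5.66 for Larp7, MCL1 6.94 and 5.09, and DUSP5 6.78 and 5.57. The phosphatases encoded by DUSP5 and DUSP6 turn off ERK signalling, and MCL1 blocks cell death. Heat shock and chaperone genes had both in 16 of 17, led by BAG3 (7.66 and 6.47), CHORDC1 (6.75 and 2.98) and HSPB1 (6.66 and 4.30). Pol II lay at all of these 16 and at all 30 of the immediate early genes with both. That is near the 95.8% of all promoters with both factors that had Pol II. The background shares also count promoters without Pol II, and the part of Pol II in the counts of these and the following lists was not tested. The counts for lists were made with the full peak lists.

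Wnt target genes had both in 15 of 18, with EPHB2 (7.26 and 4.64), SOX9 (6.64 and 6.65), a transcription factor of intestinal crypts, and NOTUM (5.90 and 6.13), which removes the lipid from Wnt proteins. SOX9 had 2 peaks of each list at its window, so its 2 folds need not come from overlapping peaks. HOX genes had both in 35 of 39 and Larp7 without KAP1 at HOXA10 and HOXC6. Cell cycle genes had both in 25 of 28, led by CDC25A (8.23 and 6.13) and MKI67 (7.41 and 6.92). The other 3 were Larp7-only: CDK2 (Larp7 fold 2.66), PLK1 (5.28) and AURKA (3.55), each with Pol II. The Larp7 peak at PLK1 ran from 991 to 1530 bp past the start, mostly outside the window in which KAP1 was scored.

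Of 20 p53 target genes 16 had both, with PMAIP1 at 8.14 for KAP1 and 4.33 for Larp7 and FDXR at 6.52 and 8.24, and 4 were Larp7-only. The 4 were TP53I3 (Larp7 fold 5.25), CDKN1A (2.77), TIGAR (4.32) and BBC3 (2.79). At TP53I3 the Larp7 peak ran from 940 to 1815 bp past the start, mostly outside the window in which KAP1 was scored. The annotated 5′ end of a gene need not be the start in use, and no Pol II peak lay at those of CDKN1A and BBC3. NF-kB inducible genes stood near the background, with 16 of 24 (66.7%) with both. CXCL1, NFKB1 and NFKBIA led them, and LTB and BIRC3 were Larp7-only.

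Among genes of KAP1 partners 11 of 15 had both, including CBX3 (6.55 and 5.74), a heterochromatin protein 1 gene, and SETDB1 and ATF7IP, which encode the methyltransferase that KAP1 recruits and its cofactor, were Larp7-only at folds of 2.96 and 3.32. Among genes of the 7SK particle and P-TEFb 14 of 17 had both, including CCNT2 (6.98 and 3.82) and SRSF2 (8.35 and 7.45). CCNT1, which encodes cyclin T1, was Larp7-only at a fold of 3.23. Pausing and elongation genes had both in 16 of 20, led by NELFCD (8.01 and 5.04), SSRP1 (6.58 and 4.45) and ELL (6.56 and 4.84). Their Larp7-only members were SUPT16H, RTF1, ELL3 and SUPT6H, with Larp7 folds between 2.51 and 3.31.

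Glycolysis genes had both in 14 of 17, with GAPDH at 6.54 and 5.90, 1 Larp7-only member (ALDOC) and 1 KAP1-only member (HK1, fold 3.42). Cytoplasmic ribosomal protein genes had both in 54 of 80 (67.5%) and mitochondrial ones in 51 of 78 (65.4%), near the background of all coding promoters. Pol II lay at 76 of the 80, of which 53 had both, and at 77 of the 78, of which 51 had both. Replication-dependent histone genes had both in 32 of 71 (45.1%) and Larp7 without KAP1 in 16 (22.5%), while H2BC9 was the only KAP1-only member (3.74). Members of this family are close copies and clustered, which makes their counts uncertain. ZNF genes had both in 375 of 496 (75.6%), Larp7-only in 52 and KAP1-only in 8, with ZNF264 highest for KAP1 (10.3, Larp7 5.34). Olfactory receptor genes had neither in 366 of 398 (92.0%), and Pol II lay at 5 of the 398.

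At the 12610 promoters with both factors the outer edges of the peaks that touch the window were compared by gene strand. Larp7 reached at least 50 bp further on the 5′ side at 62.9% (interval 62.1 to 63.8%) and on the 3′ side at 54.5% (53.7 to 55.4%). KAP1 reached further at 7.35% on the 5′ side and 7.94% on the 3′ side. Both edges agreed within 50 bp at 12.1%, and Larp7 extended past KAP1 on both sides at 35.0%. The median edges were −193 and +640 bp from the 5′ end for KAP1, and −398 and +809 bp for Larp7. At a difference of at least 200 bp the Larp7 shares were 34.3% on the 5′ side and 28.7% on the 3′ side.

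**Figure D4:**
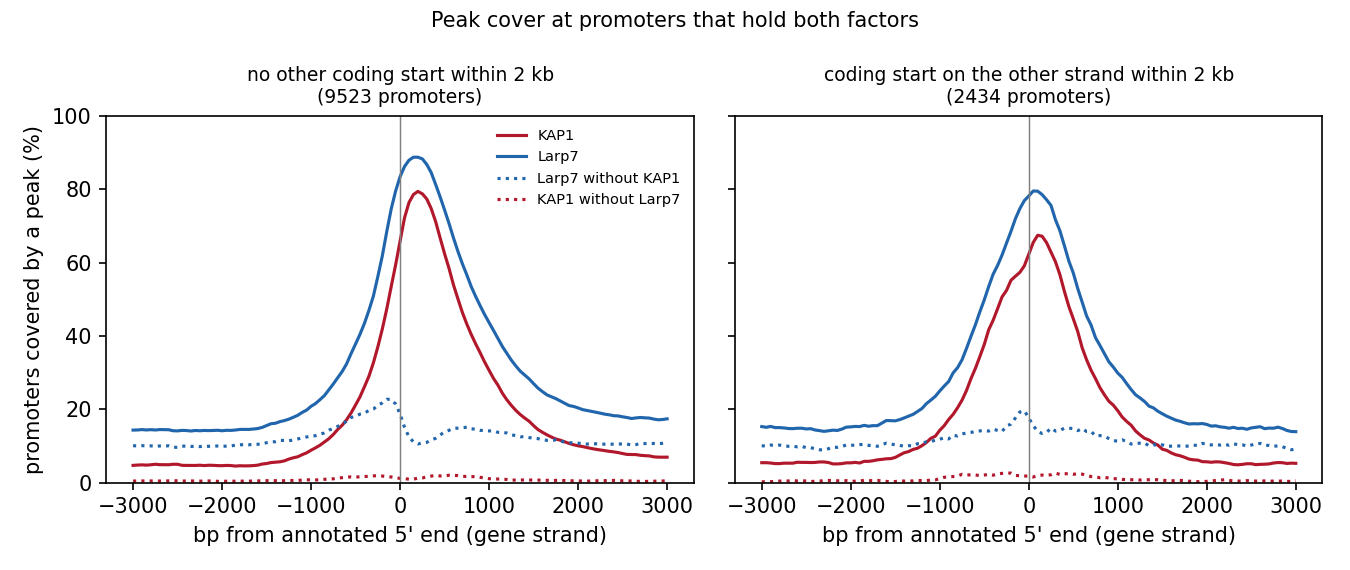
Share of promoters with both factors that a peak covers (y axis, %) at each distance from the annotated 5′ end along the gene strand (x axis, bp), for 9523 promoters with no other coding start within 2 kb and 2434 with a coding start on the other strand. Larp7 (blue) lies above KAP1 (red) throughout, and at the start itself covers 83.4% against 65.9% in the left panel.

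The 5′ and 3′ sides are best compared at promoters that stand alone. At the 9523 with no other coding start within 2 kb, Larp7 reached further on the 5′ side at 64.8% (interval 63.8 to 65.8%) and on the 3′ side at 54.9% (53.9 to 55.9%), a difference of 9.94 percentage points. The difference was above 0 on 22 of 22 autosomes, from 1.43 points on chromosome 11 to 16.3 on chromosome 13. It lay between 4.58 points (edges at least 1 bp apart) and 15.5 points (−log10 q of at least 5) under the other settings. At the 2434 promoters with a coding start on the other strand within 2 kb, the shares were 54.4% on the 5′ side and 54.2% on the 3′ side. Such a pair is mostly counted from both genes, so that the 5′ side of one is the 3′ side of the other and near-equal shares follow from the counting.

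The cover along these promoters, drawn in the plot of distance from the 5′ end, was read at single distances. Where a promoter stood alone, 37.8% had Larp7 and 21.2% had KAP1 at 500 bp before the start. At 500 bp past the start 74.4% had Larp7 and 62.4% had KAP1. Larp7 without KAP1 covered 18.1% of them 500 bp before the start and 13.8% at 500 bp past it, and KAP1 without Larp7 covered no more than 1.85% at either place.

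**Figure D5:**
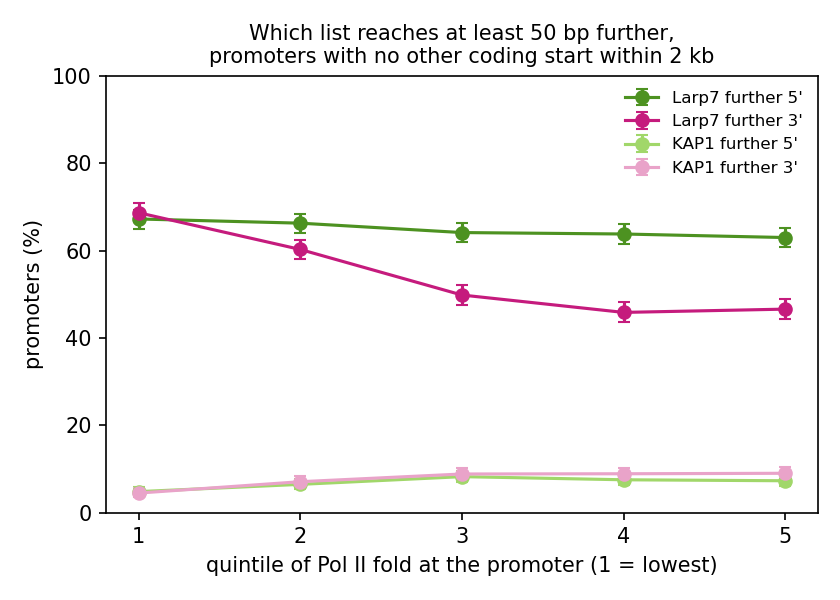
Share of promoters with no other coding start within 2 kb (y axis, %) at which 1 list reaches at least 50 bp further, by quintiles of Pol II fold (x axis, 1 = lowest), with exact 95% intervals. Larp7 further 3′ falls from 68.7% to 46.6% and Larp7 further 5′ from 67.2% to 63.0%.

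The 2 sides differed in how they went with Pol II. In the lowest quintile of Pol II fold Larp7 reached further on the 5′ side at 67.2% and on the 3′ side at 68.7%. In the highest quintile the shares were 63.0% and 46.6%, as drawn in the plot by Pol II fold. The median 3′ edge was +734 bp for KAP1 and +1048 bp for Larp7 in the lowest quintile, and +744 and +864 bp in the highest. KAP1 reached further on the 3′ side at 4.47% and 9% of the lowest and highest quintiles. At the 525 promoters with both factors and no Pol II peak, whether or not they stood alone, Larp7 reached further at 64.2% on the 5′ side and 67.8% on the 3′ side.

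The other lists had an edge pattern of the same direction. At 9225 promoters with KAP1, Larp7, Hexim1 and Cdk9 and no other coding start within 2 kb, Larp7 reached further than KAP1 at 65.1% on the 5′ side and 54.8% on the 3′ side. Hexim1 reached further than KAP1 at 81.0% and 70.8%, and Cdk9 at 44.4% and 34.7%. KAP1 reached further than Cdk9 at 21.0% and 25.4%. These 3 comparisons share the KAP1 edges, so they are not separate evidence on either side.

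Among promoters with both factors and no other coding start within 2 kb, the widest 5′ reach of Larp7 was at TEDC1, where 1 Larp7 peak of 41051 bp (chr14:105926266-105967316) ran 26308 bp further 5′ than KAP1. RAC3 followed with 24798 bp, then NUBP2 with 24200 bp and ATP5F1D, a subunit gene of ATP synthase, with 23744 bp. ATP5F1D had 2 Larp7 peaks at the window, and the long one ended before the KAP1 peak began. On the 3′ side Larp7 ran 53802 bp further at GPSM1 and 40364 bp further at DNLZ, both inside 1 Larp7 peak of 60914 bp on chromosome 9. NUDT14 followed with 39145 bp and MRPL23 with 36500 bp. Pol II was present at all 8 of these promoters, with folds from 35.4 at NUDT14 to 151 at DNLZ.

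At promoters of the same kind, the places where KAP1 reached furthest past Larp7 follow. A KAP1 peak of 20210 bp on chromosome 16 (chr16:831567-851776) passed Larp7 on the 5′ side at MSLNL (Larp7 minus KAP1 reach −3731 bp) and on the 3′ side at GNG13 (−17194 bp), since a short gap divided the Larp7 peaks there. At GZMM, the gene of a granzyme, the 5′ reach of Larp7 minus that of KAP1 was −2924 bp, at FOXH1 −3462 bp and at PDXDC1 −1851 bp. FOXH1 and PDXDC1 each had 2 KAP1 peaks at the window. At FOXH1 the outer of these did not overlap the Larp7 peak there. On the 3′ side the reach of Larp7 minus that of KAP1 was −4988 bp at ARHGAP27, where the peaks did not overlap, −2754 bp at POU3F3 and −2654 bp at TNFAIP2. At TRIM28 the differences were −326 bp on the 5′ side and −30 bp on the 3′ side, and at GAPDH they were 1033 bp and −14 bp.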

How the data were processed

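Peak lists of KAP1 and Larp7 were compared on the autosomes of hg19, with those of Hexim1, Cdk9 and Pol II as readouts. Bowtie 1.1 (alignment) and MACS2 (peaks) are named in the submitters' processing notes. For control library, read depth and peak calling parameters nothing is stated in the sources. Depth can change list length and peak width. The deposited fold, a ratio the authors gave for each peak, was ranked only within its list. The deposited −log10 p and −log10 q were used for cuts. Other libraries of the series were not analysed here.

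Overlaps, edges and places were computed with Python 3.11.15, numpy 2.4.6 and pandas 2.3.3 and GENCODE release 44 on GRCh37, whose chromosome ends no peak passed. The overlap code was tested on simulated data. Intervals came from scipy 1.17.1. Each coding gene had 1 promoter, the annotated 5′ end and 1 kb on each side. At a promoter the outermost edge of all peaks touching the window was taken.

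The rule for named genes took the promoters of best summed fold rank with both factors and of highest fold with 1, the farthest edges on each side, 3 members per list with both and all unshared members where 5 or fewer, the factor genes, and the strongest peaks of each class. RN7SK and the longest joint regions were chosen after their values were seen. Members, rules and the 20 gene lists were chosen with earlier results of these data known. PGK1 and PECAM1 were not matched. Printed windows passed over chromosome 8 and annotated untranslated regions, and some named items are not reported.

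The alternatives were cuts on −log10 q or peak number, merged peaks, an overlap of 50% of the shorter peak, peak middles, other promoter windows and starts, and other edge differences.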

Additional observations from a re-analysis of the deposited data

How the results depend on the processing

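With 1 library per antibody no value has a replicate check, and list length rests on an unknown depth. Of 93 alternative values 69 moved by more than the counting interval or the spread over autosomes, 24 did not, and the 5′ minus 3′ difference at promoters with no other start stayed above 0. Shares follow in the order KAP1 peaks with Larp7, Larp7 peaks with KAP1, joint length of KAP1, joint length of Larp7, Pol II at shared KAP1, KAP1-only and Larp7-only peaks, promoters with both, KAP1-only and Larp7-only, and Larp7 further 5′ and 3′. Classes were made anew in each setting, so a class need not hold the same sites in 2 settings. At a −log10 q of at least 5 they were 81.9, 20.3, 85.5, 12, 89.9, 72.3, 61.3, 21.6, 3.88, 27.7, 60.9 and 48.3%. With 20000 peaks per list they were 53, 50.5, 59.6, 36.7, 47.6, 42.4, 16.5, 24.2, 18.9, 7.88, 58.6 and 50.6%. With Larp7 cut to the number of KAP1 peaks the first 10 were 76, 64.2, 83.6, 48.3, 77.8, 21.5, 22.8, 60.6, 5.64 and 4.51%. With peak middles the first 9 were 65.9, 21.9, 46.9, 15.6, 66.7, 52.1, 10.3, 60.1 and 4%. Requiring 50% of the shorter peak gave 88.4 and 25.4% overlap, and Pol II at 8.26% of KAP1-only and 8.77% of Larp7-only peaks. Merging within 1 kb gave 90.3 and 26.5% overlap, Pol II at 8.57% of Larp7-only peaks, and edges of 64.4 and 56.5%. A promoter window of 2 kb gave 68.7% both, 12% Larp7-only and edges of 66.7 and 58.1%. One of 500 bp gave 62.1% both and 62.1% further 5′. The start of any transcript gave 73.6, 0.453 and 9.87% for the promoter classes. Edges at least 1 bp apart gave 82.8 and 78.9%, and at least 200 bp apart 34.3 and 28.7%. Promoters with no other start gave 64.8% further 5′. With 1 peak of each list at the promoter, a setting chosen after seeing the data like the 5′ minus 3′ differences, the share was 62%. No paired analysis was possible because each antibody has 1 library.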

Other observations

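Starts of long noncoding RNA genes away from coding starts were counted with the same window as coding promoters. Of 14972 such starts 2922 (19.5%) had both, 71 (0.474%) KAP1 without Larp7, 2329 (15.6%) Larp7 without KAP1, and 9650 (64.5%) neither.

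Over ZNF genes, whose 3′ ends are known targets of KAP1 in other cell types, the last 5 kb of 496 genes held both factors at 125, Larp7 without KAP1 at 122, KAP1 without Larp7 at 5 and neither at 244, which is 25.2%, 24.6%, 1.01% and 49.2%. The same region of all 19222 coding genes gave 31.5%, 22.3%, 0.551% and 45.6%. Over the whole gene 426 held both, 54 Larp7 without KAP1, 4 KAP1 without Larp7 and 12 neither. Both factors lay over 85.9% of whole ZNF genes and 78.8% of all coding genes. By class, 0.261% of shared KAP1 peaks, 0.163% of KAP1-only peaks and 0.127% of Larp7-only peaks had their middle in the last 5 kb of a ZNF gene. ZNF genes are close copies of each other, so reads there may be split between them.

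Of the KAP1-only peaks named by fold, that of fold 6.35 on chromosome 4 (chr4:31703061-31703239) lay 981 kb from any coding start, with none of Hexim1, Cdk9 and Pol II. The peak of fold 6.31 in an intron of MYO10 had Hexim1 alone. Of the Larp7-only peaks named by fold, that of fold 8.88 (chr14:64727163-64727518) lay in an exon of ESR2, an estrogen receptor gene, 33249 bp from the nearest KAP1 peak and with Hexim1, Cdk9 and Pol II.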
